A study of Mus musculus with 2 samples.

Results

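The genes described here are tetraspanins and partners of CD9 in mouse pancreatic ductal adenocarcinoma. The 10 members were taken by symbol from the 55361 features of the deposited matrices. They are the tetraspanin genes Cd9, Cd63, Cd81, Cd82, Cd151, Tspan1, Tspan3 and Tspan13, and Igsf8 and Ptgfrn, which encode immunoglobulin superfamily proteins that bind CD9 and CD81. All 10 were found in both libraries and all 10 had a mean of at least 5 CPM (counts in 1000000 UMIs). The series compared 1 droplet library of whole tumour with 1 library sorted for high CD9 (CD9hi), made from dissociated tumours with a 3′ end chemistry in which each counted molecule is a UMI.

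Both groups came from the KPFRR mouse line. In this line Flp is driven by Pdx1 (Pdx1-Flp), a promoter active in the pancreas. It acts on frt-flanked Trp53 (Trp53frt/frt). The line also carries Rosa26FSF-creER, a Flp-dependent inducible Cre, and Rosa26mTmG, a membrane Tomato to membrane GFP reporter. Per the labels' protocols, sorting took live cells by their GFP or CD9 signal. Age, and the number of tumours behind each library, were not given in the sources used here.

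Tetraspanins are small proteins with several membrane-spanning segments that gather integrins, proteases and other receptors into domains of the cell surface. CD9, CD63 and CD81 are also widely used markers of extracellular vesicles, and CD63 is mostly found in late endosomes and lysosomes. CD151 binds laminin-binding integrins, CD82 is known as a metastasis suppressor, and TSPAN1 is an epithelial tetraspanin found in secretory epithelia and many carcinomas.

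After filtering, 2550 of 3082 whole-tumour and 5092 of 5500 CD9hi barcodes were kept, with 46270361 and 119632120 UMIs and medians of 17686 and 21791.5 UMIs. Only 2 kept barcodes occurred in both libraries. There was 1 library per group, so no difference has a replicate check, no test was made, and the intervals below are 95% intervals for counting error only. A member is called higher or lower at a difference of at least 1.5-fold, which is a rule of size. The epithelial list (Epcam, Krt8, Krt18, Krt19 and Cdh1) had all 5 genes detected in both libraries, at a summed 10218 CPM in the whole tumour against 6346 CPM in CD9hi. Acinar enzyme genes summed to 58872 CPM in the whole tumour, with all 19 detected, and to 197 CPM in CD9hi, with 18 of 19 detected and Pnlip at 0. The fibroblast list was at 18.1 and 77.9 CPM (Dpt at 0 in the whole tumour), the endothelial list at 5.32 and 14.9 CPM (Cdh5 at 0 in the whole tumour), the immune list at 11.1 and 20.5 CPM, the endocrine list at 1160 and 243 CPM, and the tuft list at 59.3 and 27.8 CPM (Trpm5 at 0 in CD9hi). At least 5 UMIs of the fibroblast list were found in 14 whole-tumour (0.549%) and 378 CD9hi (7.42%) barcodes. GFP had 0 UMIs in both libraries. Barcodes with little of the nuclear RNA Malat1 (below 1000 CPM, Malat1-poor) made up 8.47% of the whole tumour and 12.04% of CD9hi. Of the 216 in the whole tumour, 183 had at least 100000 CPM of acinar enzymes. Below that enzyme level they were 33 of 2243 whole-tumour and 613 of 5088 CD9hi barcodes. Values without Malat1-poor barcodes are given below for Cd63 and among the alternatives.

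The promoters of the 4 members that differed most between the libraries are shown because Cd9 and Cd63 were high where Tspan1 and Tspan13 were low. Each window is the RefSeq promoter on GRCm38.p6, from 250 bases before to 50 bases after the gene's start, printed 5′ to 3′ on the gene's own strand. Capitals mark CAGGTG or CACCTG, which are reverse complements of each other and the core of the E-box that Zeb and Snail family factors are known to bind. The Cd9 window is chr6:125494711-125495010 on the minus strand, Cd63 is chr10:128909095-128909394 on the plus strand, Tspan1 is chr4:116167549-116167848 on the minus strand and Tspan13 is chr12:36042429-36042728 on the minus strand.
Cd9: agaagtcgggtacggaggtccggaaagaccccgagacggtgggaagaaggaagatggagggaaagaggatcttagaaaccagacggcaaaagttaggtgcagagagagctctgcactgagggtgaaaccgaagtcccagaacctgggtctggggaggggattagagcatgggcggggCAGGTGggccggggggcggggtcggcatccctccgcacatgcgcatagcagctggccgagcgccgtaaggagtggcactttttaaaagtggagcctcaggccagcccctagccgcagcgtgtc
Cd63: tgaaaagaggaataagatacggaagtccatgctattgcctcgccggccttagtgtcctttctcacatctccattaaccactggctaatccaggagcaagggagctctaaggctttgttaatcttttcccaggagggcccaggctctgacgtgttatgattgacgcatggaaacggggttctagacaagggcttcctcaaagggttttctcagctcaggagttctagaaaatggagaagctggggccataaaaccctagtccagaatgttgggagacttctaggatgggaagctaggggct
Tspan1: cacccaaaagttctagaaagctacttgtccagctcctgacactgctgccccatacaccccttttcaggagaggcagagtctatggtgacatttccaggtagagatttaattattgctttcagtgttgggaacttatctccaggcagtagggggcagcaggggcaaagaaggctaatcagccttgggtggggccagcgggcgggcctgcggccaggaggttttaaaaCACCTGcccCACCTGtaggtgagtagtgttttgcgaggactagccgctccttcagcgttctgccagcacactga
Tspan13: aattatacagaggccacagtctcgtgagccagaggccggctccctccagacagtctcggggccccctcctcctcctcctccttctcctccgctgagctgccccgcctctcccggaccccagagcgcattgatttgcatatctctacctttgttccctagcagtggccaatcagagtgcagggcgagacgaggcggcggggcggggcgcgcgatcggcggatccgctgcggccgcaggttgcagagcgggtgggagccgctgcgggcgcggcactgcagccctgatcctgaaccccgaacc

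The Cd9 window held 1 copy of the motif, at position -73 from the start. Tspan1 held 2 copies close to the start, at -24 and -15, and Cd63 and Tspan13 held 0. All 10 members matched the RefSeq table, with 14 windows in all because Cd82 and Cd151 have more than 1 start, and 7 of the 14 windows held the motif. Over all 32851 windows of the table, 20.2% held it. Igsf8 also had 2 copies, and 2.88% of all windows had more than 1. A match describes the letters of the window and says nothing of binding.

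Over all kept barcodes, Cd9 and Cd63 were higher in CD9hi and Tspan1 and Tspan13 were lower. Cd9, the gene of the protein the cells were sorted for, had 1273 CPM in the whole tumour against 2367 CPM in CD9hi, a log2 ratio of 0.90 (0.88 to 0.91). Cd63 was at 723 and 1425 CPM, a log2 ratio of 0.98 (0.96 to 1.00). Tspan1 went the other way, from 68.6 CPM in the whole tumour to 3.65 CPM in CD9hi, a log2 ratio of -4.23 (-4.38 to -4.09), and -3.46 (39.8 and 3.61 CPM) in barcodes below 10000 CPM of acinar enzymes alone. Tspan13 was at 41.1 and 10.1 CPM, a log2 ratio of -2.02 (-2.13 to -1.92). Thus 2 of 10 members were higher, where 17.1% of 9760 measured genes were, and 2 of 10 were lower, where 13.4% were. The higher ones include Cd9, a call that the sort favoured in advance, so Cd63 was the only other higher member. Both shares of the members were near those of all genes. In barcodes below 10000 CPM of acinar enzymes, a choice made after seeing the data, the Cd9 log2 ratio was 0.58, just short of 1.5-fold, which left Cd63 (0.90) as the 1 higher member.

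The other 6 members differed by less than 1.5-fold, all with CD9hi above the whole tumour over all kept barcodes. Cd82 was at 51.2 and 72.1 CPM (log2 ratio 0.50), Cd151 at 216 and 303 CPM (0.48), and the CD9 partner Ptgfrn at 42.8 and 58.7 CPM (0.46). Tspan3 was at 121 and 156 CPM (0.37), Igsf8 at 60.0 and 71.1 CPM (0.25), and Cd81, whose protein is a close relative of CD9, at 508 and 557 CPM (0.13). The median log2 ratio was 0.41 over the members and 0.13 over all measured genes. In barcodes below 10000 CPM of acinar enzymes alone, Cd81 was at -0.09 and Igsf8 at 0.01. Cd82 was at 0.30 there, Cd151 at 0.25, Ptgfrn at 0.23 and Tspan3 at 0.17. The CD9hi library also had more Vim, the mesenchymal intermediate filament gene (4862 against 1139 CPM), and less Epcam, the epithelial adhesion gene (1052 against 1925 CPM), so the members were next read by the Epcam and Vim level of each barcode.

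**Figure D1:**
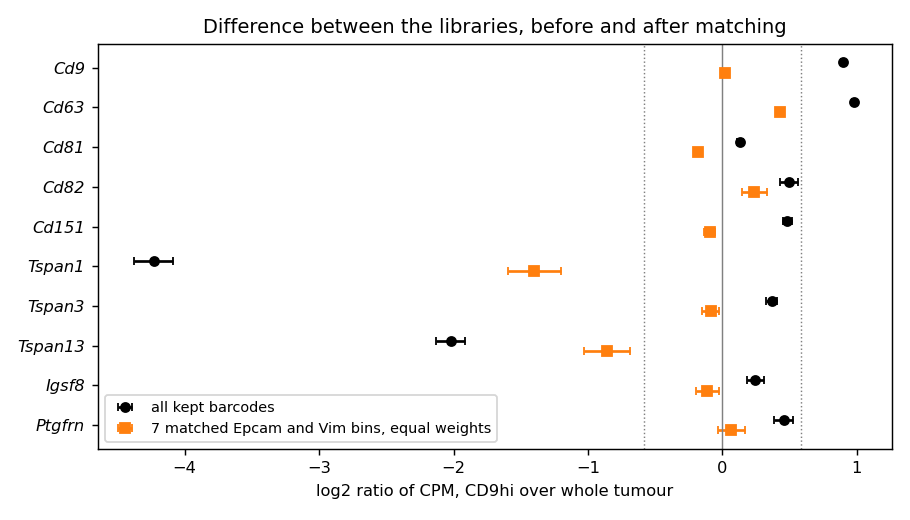
Log2 ratio of CPM, CD9hi over whole tumour, for the 10 members over all kept barcodes (black circles) and as the mean of 7 matched Epcam and Vim bins with equal weights (orange squares). Bars are 95% intervals for counting error and dotted lines mark 1.5-fold. Cd9 goes from 0.90 to 0.02 and Tspan1 from -4.23 to -1.40.

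Within the whole tumour, Cd9 followed Vim. Barcodes were split at 500 and 3000 CPM of Vim into low, middle and high, and at 500 and 1500 CPM of Epcam, leaving out barcodes with at least 100000 CPM of acinar enzymes. Cd9 was at 833 CPM in 1471 Vim-low, 1956 CPM in 400 Vim-middle and 3069 CPM in 372 Vim-high barcodes, a log2 ratio of high over low of 1.88 (1.86 to 1.91). Cd151, whose protein pairs with laminin-binding integrins, was at 178, 315 and 395 CPM (1.15), and Ptgfrn at 38.4, 52.6 and 73.0 CPM (0.93). In all of these the 3 levels kept the same order. Cd63, Cd81, Tspan3 and Igsf8 had log2 ratios of 0.62, 0.59, 0.64 and 0.63, and Cd82, with 0.55, did not reach 1.5-fold. Hence 7 members were higher in Vim-high barcodes, where 14% of 9826 measured genes were. That share was well above the one over all genes, and the member median was 0.62, against -0.01 over all genes.

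Tspan1 and Tspan13 had the opposite order in the whole tumour. Tspan1 was at 98.8 CPM in Vim-low, 12.9 CPM in Vim-middle and 1.36 CPM in Vim-high barcodes, a log2 ratio of -6.11 (-7.24 to -5.30). Tspan13 was at 53.9, 14.5 and 17.4 CPM, a log2 ratio of -1.62 (-1.90 to -1.37), with the drop already complete in the middle bin. These 2 were the members lower in Vim-high barcodes, where 18.1% of measured genes were. Low Tspan1 thus accompanied Vim within the whole tumour as well as between the libraries.

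In CD9hi the same split gave a flat Cd9, a narrow range that the sort for high CD9 favoured in advance. Cd9 was at 2081 CPM in 427 Vim-low, 2358 CPM in 1149 Vim-middle and 2399 CPM in 3512 Vim-high barcodes (log2 ratio 0.21 for high over low). Cd151, Cd81, Igsf8 and Ptgfrn were also level, with log2 ratios from -0.07 to 0.22. Cd63 was at 675 CPM in Vim-low and 1484 CPM in Vim-high barcodes (1.14), and Tspan3 at 104 and 161 CPM (0.64). Those were the 2 members higher, where 9.12% of 9669 measured genes were. Cd82 was at 103 CPM in Vim-low and 65.5 CPM in Vim-high barcodes (-0.65), which was opposite in sign to the whole tumour. With Cd82, Tspan1 (39.8 and 0.448 CPM, -6.46) and Tspan13 (26.8 and 8.92 CPM, -1.59) made 3 members lower, where 17.3% of genes were.

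**Figure D2:**
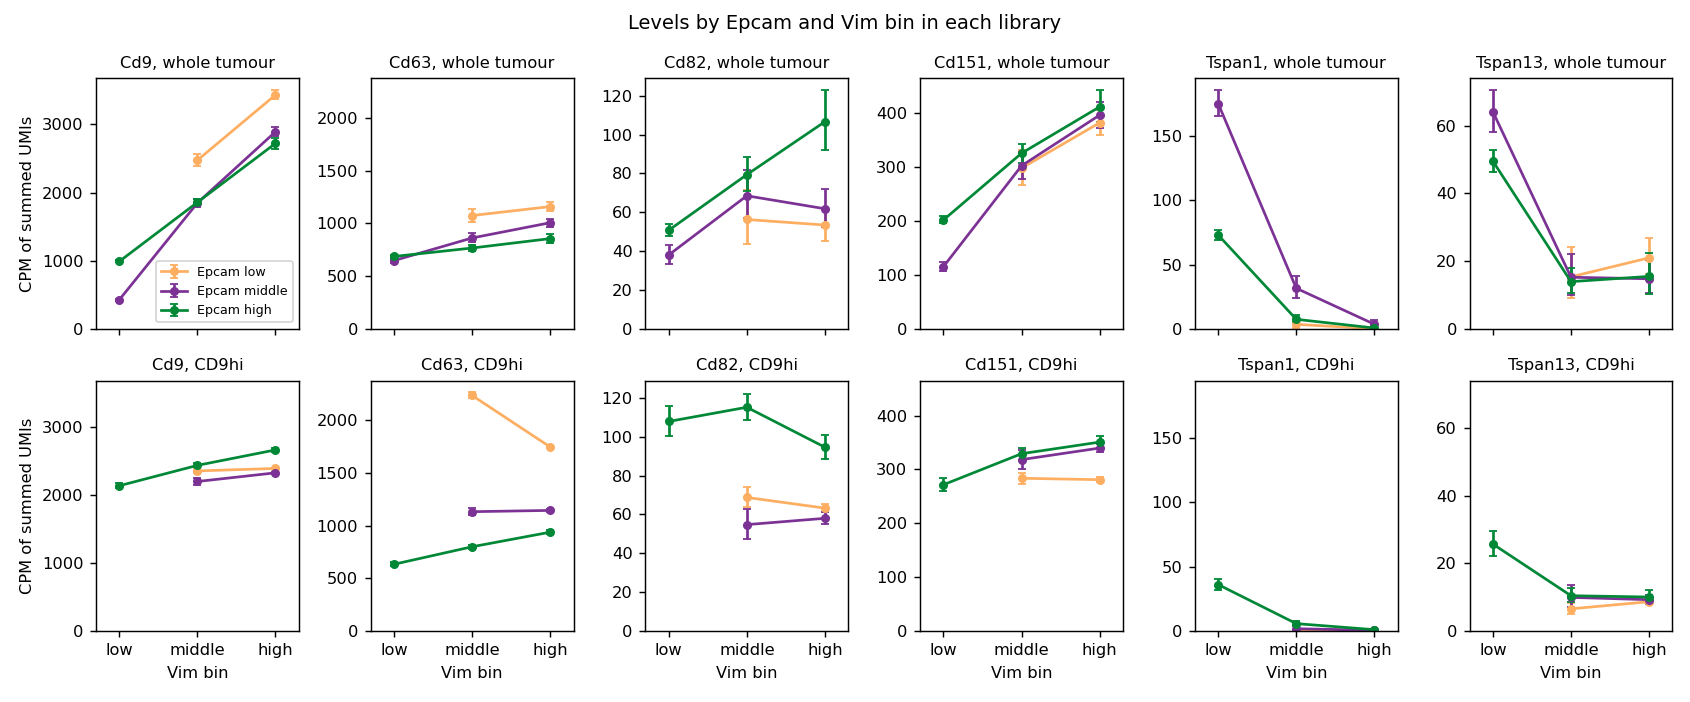
CPM of summed UMIs for 6 members by Vim bin (horizontal axis) and Epcam bin (colour), whole tumour in the upper row and CD9hi in the lower row. Points are bins with at least 50 barcodes and bars are 95% Poisson intervals. Whole-tumour Cd9 climbs from 425 to 3434 CPM across bins, and CD9hi Cd9 stays between 2131 and 2657 CPM.

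The order of Cd9 over the whole-tumour bins ran from 425 CPM in Epcam-middle, Vim-low barcodes to 3434 CPM in Epcam-low, Vim-high barcodes. Between these were 989 CPM in Epcam-high, Vim-low barcodes, 1848 CPM and 1856 CPM in the Vim-middle bins with middle and high Epcam, 2475 CPM in Epcam-low, Vim-middle barcodes, and 2722 and 2892 CPM in the Vim-high bins with high and middle Epcam. In this order the neighbours at 1848 and 1856 CPM had overlapping counting intervals, and no other neighbours did. The 7 CD9hi bins with at least 50 barcodes ranged from 2131 to 2657 CPM, and the sort favoured such a narrow range in advance. Whole-tumour bins thus reached above the highest CD9hi bin. The Epcam-middle, Vim-low bin of the whole tumour averaged 15653 CPM of acinar enzymes, against 1417 CPM in its Epcam-low, Vim-high bin.

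Bin by bin, the Cd9 difference between the libraries changed sign. It was largest in Epcam-high, Vim-low barcodes, with 989 CPM over 1047 whole-tumour barcodes against 2131 CPM over 365 CD9hi barcodes, a log2 ratio of 1.11 (1.08 to 1.14). The log2 ratio was 0.39 and 0.25 in the Vim-middle bins with high and middle Epcam. In Epcam-high, Vim-high barcodes it was -0.04 (-0.08 to 0.01), an interval that holds 0. It was -0.08 (-0.13 to -0.02) in Epcam-low, Vim-middle, -0.32 (-0.35 to -0.28) in Epcam-middle, Vim-high and -0.53 (-0.56 to -0.50) in Epcam-low, Vim-high barcodes. In each of these last bins the whole tumour had the higher level.

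Averaged over the 7 bins, Cd9 had a level of 2317 CPM in the whole tumour against 2352 CPM in CD9hi, a log2 ratio of 0.02 (0.01 to 0.04). This mean joins bins of both signs and gave 0.36 with bin edges at the whole-tumour tertiles and -0.09 without the Epcam-high, Vim-low bin. Tspan1 was at 17.0 and 6.46 CPM (-1.40) and Tspan13 at 20.7 and 11.5 CPM (-0.86), and these were the 2 members lower at matched bins, where 6.92% of 9585 genes were. With tertile edges they were at -0.42 and -0.58, and 0 members were lower. No member was higher, where 6.15% of genes were. The nearest was Cd63 at 0.43, and the remaining 6, without Cd9, lay between -0.18 and 0.24.

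Tspan1 was concentrated in few barcodes. The 10% of whole-tumour barcodes with the most Tspan1 held 73.3% of its UMIs, against 57.5% for Tspan13, 40.3% for Cd9 and 20.2% of all UMIs in the deepest 10%. Of the Tspan1 UMIs below 100000 CPM of enzymes, 51.7% were in Epcam-high, Vim-low and 43.9% in Epcam-middle, Vim-low barcodes. It was at 175 CPM in the 376 Epcam-middle, Vim-low barcodes and at 73.0 CPM in the 1047 Epcam-high, Vim-low barcodes, against 36.0 CPM in the 365 CD9hi barcodes of the latter bin (log2 ratio -1.02, -1.22 to -0.83). In Epcam-low, Vim-high barcodes it had 0 UMIs in the whole tumour and 20 UMIs in CD9hi, too few for a fold. Few UMIs were also seen in Epcam-high, Vim-high barcodes, 1 and 9. Tspan13 had log2 ratios below 0 in each of the 7 bins, from -1.30 to -0.43, with intervals that held 0 in 3 of them.

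Cd63 was set apart by the Epcam-low barcodes of CD9hi. There it was at 2236 CPM in Vim-middle and 1746 CPM in Vim-high barcodes, against 1075 and 1160 CPM in the whole tumour, log2 ratios of 1.06 and 0.59. In the 5 other matched bins the log2 ratio lay between -0.12 and 0.39. The Epcam-low CD9hi bins were also those with many Malat1-poor barcodes, 27.2% and 22.5% against 1.52% and 2.70% in the whole tumour. Cd63 was at 2814 CPM in the 613 Malat1-poor and 1268 CPM in the other CD9hi barcodes. Without Malat1-poor barcodes, Epcam-low Cd63 was at 1590 CPM in CD9hi against 1083 CPM in the whole tumour, and the log2 ratio over all barcodes was 0.74 in place of 0.98. The same Malat1-poor barcodes had Cd9 at 2869 CPM against 2312 CPM in the others, but Cd81 at 252 against 592 CPM, Ptgfrn at 28.6 against 62.1 CPM and Tspan13 at 2.04 against 11.01 CPM.

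Cd82 was highest with Epcam in CD9hi. It was at 108, 115 and 94.6 CPM in the Epcam-high bins with low, middle and high Vim, and between 54.7 and 68.7 CPM in the other 4. In the whole tumour the Epcam-high bins were at 50.7, 79.4 and 107 CPM in the same order. The libraries therefore differed most in Epcam-high, Vim-low barcodes, with a log2 ratio of 1.09 (0.95 to 1.22), and by -0.18 (-0.40 to 0.06) in Epcam-high, Vim-high barcodes.

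Along Epcam, fewer members reached 1.5-fold than along Vim in the whole tumour. For Epcam-high over Epcam-low barcodes of the whole tumour, 2 members were higher (Tspan1 at 3.8 and Tspan13 at 0.68 on the log2 scale), where 15.3% of 9822 genes were. Another 2 were lower (Cd9 at -1.21 and Cd63 at -0.60), where 9.28% were. In CD9hi, 3 members were higher (Tspan1 at 4.78, Tspan13 at 0.78 and Cd82 at 0.72), where 18.1% of 9469 genes were. Only Cd63 was lower there (-1.18), where 11.6% were, and Cd9 was level at 0.03.

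Member levels were also read by acinar RNA in the whole tumour. Barcodes were split at 10000 and 100000 CPM of summed digestive enzymes, which gave 1992 low, 251 middle and 307 high barcodes, against 6 CD9hi barcodes above 10000 CPM. Cd9 was at 1580 CPM in enzyme-low, 389 CPM in enzyme-middle and 134 CPM in enzyme-high barcodes. Cd81 was at 594, 340 and 118 CPM, and Cd151 at 254, 150 and 42.1 CPM. For high over low, 8 members were lower, a share below the 85.7% of 9150 genes that were, and 1 was higher (Tspan1), where 3.72% were. The enzymes take up much of the total in these barcodes, and the median over all genes was -1.39. With enzyme UMIs left out of the total, 7 members were lower, where 47.6% of 9710 genes were, and 2 (Tspan1 and Tspan13) were higher, where 9.03% were. On that scale Cd63 was level at -0.09 while Cd9 was at -2.74.

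Tspan1 peaked in the middle of this scale. It was at 39.8 CPM in enzyme-low, 256 CPM in enzyme-middle and 86.0 CPM in enzyme-high barcodes, and Tspan13 at 36.6, 67.6 and 45.8 CPM. For middle over low the log2 ratios were 2.68 (2.57 to 2.79) and 0.89 (0.71 to 1.06), the 2 members higher, where 9.62% of 9864 genes were. Another 6 were lower, where 21.7% were. Within enzyme-middle barcodes Tspan1 was at 262 CPM with middle and 278 CPM with high Epcam, against 56.3 and 40.9 CPM in enzyme-low barcodes of the same Epcam bins. Enzyme-middle barcodes had median Epcam and Vim levels of 1238 and 0 CPM. With only enzyme-low barcodes, the Tspan1 log2 ratio at matched bins was -0.63 in place of -1.40, and the part of acinar RNA in it was not otherwise tested.

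**Figure D3:**
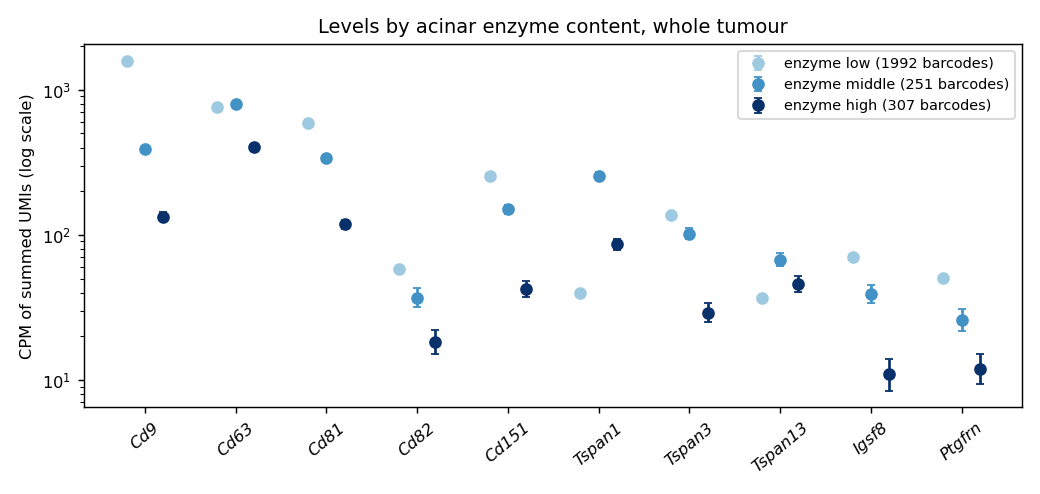
CPM of the 10 members (log scale) in whole-tumour barcodes with low, middle and high acinar enzyme content, with 95% Poisson intervals. Cd9 falls from 1580 to 134 CPM from low to high, and Tspan1 is highest in the middle at 256 CPM.

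Detection per barcode was compared after thinning each barcode to 5000 UMIs, leaving out 165 whole-tumour and 114 CD9hi barcodes below that depth and those with high enzymes. Cd9 was detected in 92.1% (90.9 to 93.2) of 2092 whole-tumour and 99.5% (99.2 to 99.7) of 4975 CD9hi barcodes, against 37.5% (32.0 to 43.4) of 293 enzyme-high barcodes. These enzyme-high barcodes, all of the whole-tumour library, serve as a cautious comparison level. Whether their UMIs are free RNA or their own was not tested, and CD9hi is a separate library. At full depth (medians of 17734, 21791.5 and 17146 UMIs) the shares came to 96.3%, 99.6% and 65.5%. Tspan1 was detected in 15.7% of whole-tumour and 1.11% of CD9hi barcodes, and its 23.9% in enzyme-high barcodes was above both, so neither share is read as expression here. With enzyme UMIs left out of the total, Tspan1 was at 152 CPM in enzyme-high and 39.8 CPM in enzyme-low barcodes. The share of Tspan13 in the whole tumour, 14.9%, was likewise no higher than the 16.04% in enzyme-high barcodes.

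At this depth Cd82 and Cd151 were detected at least 1.5 times as often in whole-tumour barcodes with a Cd9 UMI as in those without. In the whole tumour, Cd82 was found in 22.6% (20.8 to 24.6) of 1927 barcodes with a Cd9 UMI and 9.70% (5.64 to 15.3) of 165 without. Cd151 was found in 65.2% (63.1 to 67.4) and 40.0% (32.5 to 47.9). The share of Cd82 without Cd9 was close to its 8.53% in enzyme-high barcodes. The share of Tspan1 was 14.7% with and 27.9% without Cd9, but 10.6% and 12.3% in barcodes below 10000 CPM of acinar enzymes. The shares of Ptgfrn (20.9% and 21.2%) and Tspan13 (14.9% and 14.5%) had intervals that contained each other's value. Hence 2 of 9 members had a share at least 1.5 times as high beside Cd9, where 18.6% of 9756 genes did. Cd63 (95.1% with and 86.7% without Cd9) and Cd81 (89.3% and 78.8%) could not reach 1.5 times from such shares. Both were still detected more often beside Cd9, with counting intervals apart. The count is therefore not read against the share over all genes. Thinned to 10000 UMIs, Cd82 lost the call, at 37.1% and 30.0%. Igsf8 (48.6% and 30.0%) and Ptgfrn (34.2% and 12.5%) passed there beside Cd151 (82.4% and 37.5%). These shares have no intervals and no share over all genes beside them here, so the changes cannot be told apart from counting error. In Vim-low barcodes alone, Cd82 was found in 19.8% with and 9.68% without Cd9, the 1 member past 1.5 times there, where 16.7% of 9743 genes were. Cd151, at 56.1% and 37.4%, fell just short. In CD9hi 26 barcodes lacked a Cd9 UMI, so shares among them have wide intervals, such as 11.5% (2.45 to 30.2) for Cd82. There 2 of 9 members passed, where 26.8% of 9735 genes did, and thinned to 2000 UMIs Cd82 was at 14.6% with and 15.6% without Cd9.

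**Figure D4:**
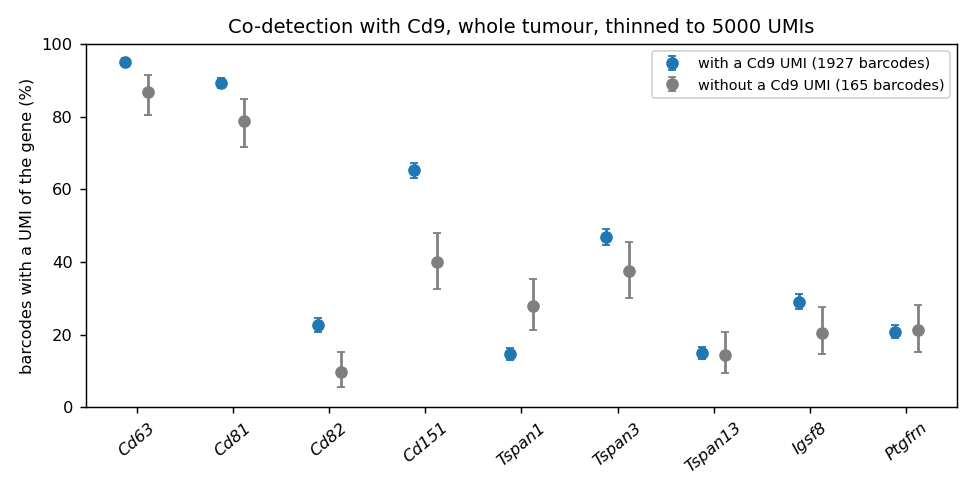
Share of thinned whole-tumour barcodes with a UMI of each member, among 1927 with and 165 without a Cd9 UMI, with exact 95% binomial intervals. Cd82 (22.6% against 9.70%) and Cd151 (65.2% against 40.0%) are at least 1.5 times as high beside Cd9. Tspan1 is drawn at 14.7% against 27.9%, and was at 10.6% against 12.3% in enzyme-low barcodes, which are not drawn apart. Its shares are not read as expression.

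The number of Cd9 UMIs per thinned barcode overlapped widely between the libraries. The median was 5 in the whole tumour and 11 in CD9hi, and 24.0% of whole-tumour barcodes had 11 or more. That share was 8.17% in Vim-low, 43.5% in Vim-middle and 64.0% in Vim-high barcodes, whose medians were 3, 9 and 13.5 UMIs. In CD9hi the medians were 9.5, 11 and 11. Vim-high whole-tumour barcodes therefore had a higher median than the sorted library.

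Across whole-tumour barcodes with 0, 1 to 4, 5 to 9, 10 to 19 and 20 or more Cd9 UMIs, Cd151 was at 125, 164, 259, 339 and 451 CPM. Cd63 was at 608, 691, 813, 911 and 1025 CPM, and Cd82 at 19.4, 37.0, 67.2, 75.4 and 97.0 CPM. All of these increased at each step. Tspan1 decreased at each step, at 108, 85.9, 51.1, 10.98 and 4.48 CPM, the last from 3 UMIs. Vim went from 158 to 4713 CPM over the same classes, so the order by Cd9 is also an order by Vim. In CD9hi, from 1 to 4 up to 20 or more Cd9 UMIs, Cd82 went from 48.5 to 121 CPM, Cd63 from 1112 to 1870 CPM and Cd151 from 249 to 372 CPM, while Vim went from 4225 to 4824 CPM. Over these CD9hi classes Epcam went from 866 to 1257 CPM, and Malat1-poor barcodes, given above, were high in both Cd9 and Cd63. The part of either in these levels was not tested.

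**Figure D5:**
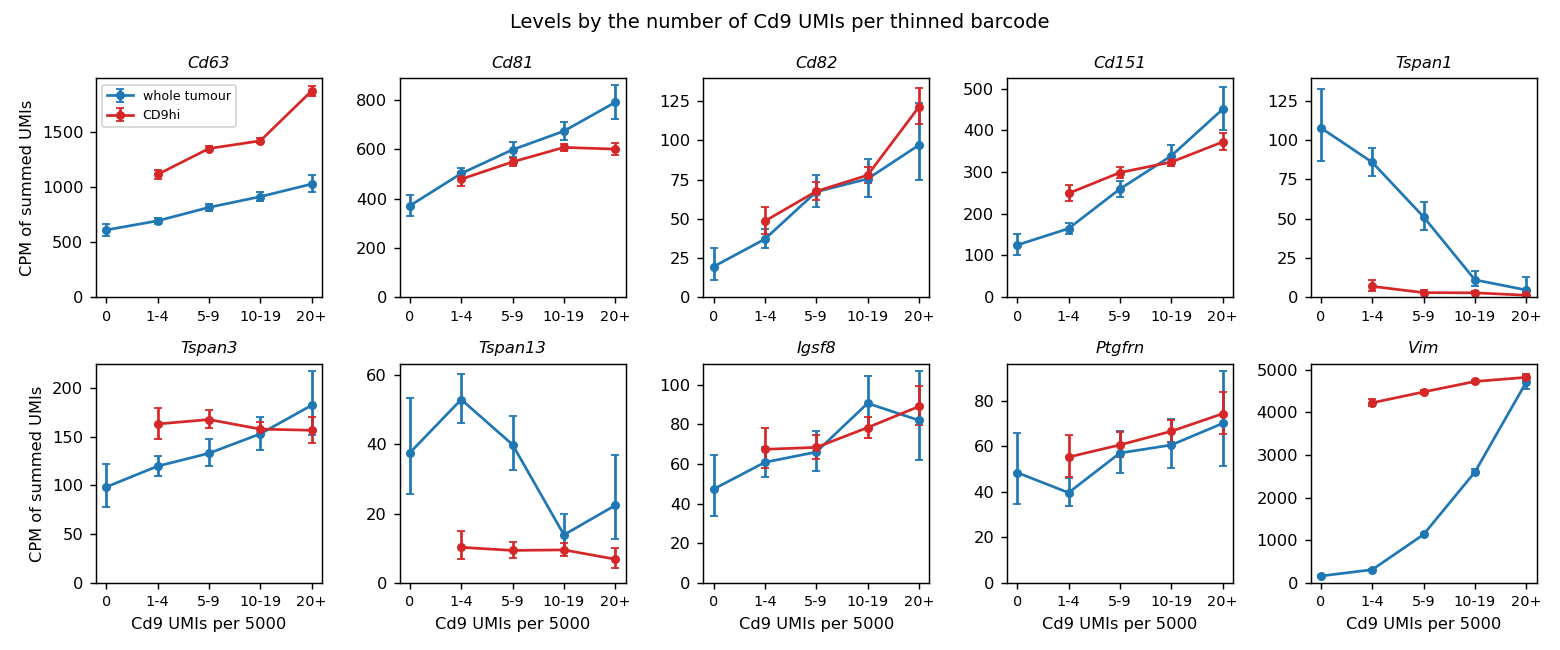
CPM of the 9 other members and Vim by number of Cd9 UMIs per barcode thinned to 5000, whole tumour in blue and CD9hi in red, for classes with at least 50 barcodes and with 95% Poisson intervals. In the whole tumour Cd151 climbs from 125 to 451 CPM and Tspan1 falls from 108 to 4.48 CPM while Vim climbs from 158 to 4713 CPM.

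Likeness was measured as Pearson's r of log2(CPM + 1) over the 15 groups of library, Epcam bin and Vim bin with at least 50 barcodes, among genes with a mean of at least 50 CPM. The groups share 2 libraries and the same bin edges, so r is a description without a p. Nearest to Cd9 among 2908 genes were the lysosomal membrane gene Tmem106b, the autophagy gene Gabarap, the dynein light chain gene Dynlrb1, Ptms and Fxyd5, with r from 0.97 to 0.98. Among the members Cd151 was nearest (0.95), then Igsf8 (0.81) and Ptgfrn (0.79), with Cd63 at 0.47 and Tspan1 at -0.82. Nearest to Tspan1 were the mucin gene Muc1, the galectin gene Lgals4, the ribosomal protein gene Rpl7, the glutathione peroxidase gene Gpx2 and the homeobox gene Meis2, with r from 0.92 to 0.95, and Tspan13 was the only member with a positive r (0.81).

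Other genes of the family and its partners were read over all kept barcodes with the same size rule. Of 23 other tetraspanins 13 were measured, with 3 higher in CD9hi (Tspan2 at 0.91, Tspan4 at 0.74 and Tspan9 at 0.66 on the log2 scale) and 2 lower, with a median of 0.17. Of all measured genes, 17.1% passed upward and 13.4% downward around a median log2 ratio of 0.13, so these counts were near the background. The lower ones were Tspan8, an epithelial tetraspanin, at 529 CPM in the whole tumour against 232 CPM in CD9hi (-1.19), and Tspan12 (-0.90). Below the expression minimum, Tspan11 had 6 UMIs in the whole tumour and 745 in CD9hi, and Tspan33 114 and 53. The leukocyte tetraspanin Cd53 was at 2.38 and 7.43 CPM, beside the immune list given above.

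Among 12 measured partners of 13, 6 were higher and 1 lower, beside the same 17.1% and 13.4% of all genes, with a median log2 ratio of 0.56 against 0.13 over all genes. The higher ones were the integrin genes Itga5 (24.98 and 66.7 CPM, 1.42), Itgb1 (402 and 877 CPM, 1.13), Itga3 (0.76) and Itga6 (0.67), the hyaluronan receptor gene Cd44 (0.82) and the sheddase gene Adam17 (0.59). Cldn7, a tight junction claudin, was lower, at 385 and 96.5 CPM (-2.00). Itgb4, Itga2, Igsf3, Hbegf and Adam10, whose protein is a partner of several tetraspanins, did not reach 1.5-fold, with log2 ratios from -0.25 to 0.52. Thus 4 of 6 integrin genes were higher and the claudin lower. These lists were not read at matched Epcam and Vim bins, where 6.15% of all genes were higher. The part of Epcam and Vim level in them was not tested. Of 7 measured vesicle genes of 8, Flot2 was higher (0.97) and the secretory GTPase gene Rab27b lower (-0.62), with a median of 0.42. Below the minimum, Rab27a was at 4.47 and 0.234 CPM.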

How the data were processed

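The authors deposited UMI counts for each gene in each barcode, without normalization, as whole numbers in the matrices. The submitters' processing notes name Cell Ranger 7.0.0 and GRCm39, and the file headers name version 6.1.2. The sources used here do not say if intronic reads entered the counts. Groups were taken from the sorted population in the labels. The genotype is not reported here in full.

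Kept barcodes had 500 or more genes, 1000 or more UMIs and no more than 20% of UMIs from mitochondrial genes. Doublets were kept, because Scrublet's automatic call marked 0.549% and 0.0196% of barcodes and so did not work in CD9hi, and their removal is an alternative. UMIs were summed per library, bin or class and divided by the total to give CPM, the counts per 1000000 UMIs. Log2 ratios had 0.5 counts added to each sum. Intervals are exact Poisson for CPM, exact conditional binomial for ratios and Clopper-Pearson for shares. Genes with a mean of at least 5 CPM counted as measured. Bins with under 50 barcodes were left out, and matched bins were weighted equally.

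The members, lists, bins and named genes were chosen with earlier results of these data known. Named genes were the members, list genes at least 1.5-fold different or at a mean of at least 50 CPM, list genes below the minimum chosen after their values were seen, and the 5 genes most like Cd9 and Tspan1. Calculations were tested on simulated data and used numpy 2.4.6, scipy 1.17.1, pandas 2.3.3, scanpy 1.11.5 and matplotlib 3.10.9.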

Additional observations from a re-analysis of the deposited data

Results flagged for a closer look

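For 6 members the effect of a bin had opposite signs in the libraries with counting intervals apart from 0 in both, and this difference between the libraries was not tested. The share of all genes with opposite signs was not counted, so the 6 is not read as a result about the members. Some of the values were close to level, such as 0.034 for Cd9 in CD9hi, where the median over all genes was 0.10. The values are log2 ratios, with the whole tumour before CD9hi. For Epcam-high over Epcam-low barcodes they were -1.21 and 0.034 for Cd9, -0.071 and 0.40 for Cd81, -0.49 and 0.20 for Cd151, -0.28 and 0.33 for Igsf8, and -0.31 and 0.43 for Ptgfrn. For Vim-high over Vim-low barcodes they were 0.55 and -0.65 for Cd82. The Epcam-low bins of CD9hi were also the ones rich in Malat1-poor barcodes. With these, Epcam-low barcodes of CD9hi had Cd9, Cd81, Cd151, Igsf8 and Ptgfrn at 2378, 470, 281, 61.7 and 50.9 CPM. Without the Malat1-poor barcodes the levels were 2268, 522, 289, 65.7 and 56.2 CPM in the same order. The Epcam-high levels, with Malat1-poor barcodes kept, were 2435, 621, 322, 77.6 and 68.8 CPM. The part of Malat1-poor barcodes in the signs was not tested. Ptgfrn for Vim (0.93 and -0.073) also had opposite signs, but its CD9hi interval held 0.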

How the results depend on the processing

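Over all kept barcodes, 2 members were lower under each alternative run, and no direction of a called member reversed. The count of higher members was 3 when thinned to 5000 UMIs, where Cd82 reached 0.62, 1 in enzyme-low barcodes alone, a choice made after seeing the data, and 2 otherwise. The Cd9 log2 ratio of 0.90 was 0.94 with no cell filter, 0.85 with a stricter filter, 0.88 with expected doublets removed, 0.77 scaled by the median gene ratio, 0.81 with acinar enzyme UMIs left out of the total, 0.72 without enzyme-high barcodes, 0.58 with enzyme-low barcodes alone, 0.77 without Malat1-poor barcodes, 0.97 as a mean of per-cell CPM and 0.95 thinned. Cd63 ranged from 0.74 to 1.03, Tspan1 from -4.36 to -3.46 and Tspan13 from -2.15 to -1.86, while Cd81, which was not called, ranged from -0.094 to 0.22. Leaving out barcodes with markers of other cell types (45 whole-tumour and 457 CD9hi barcodes) gave 0.90 for Cd9 and 0.92 for Cd63.

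At matched bins, 0 members were lower with tertile edges, and 2 under each other alternative. The removal of doublets, the restriction to enzyme-low barcodes and leaving out each bin in turn were chosen after seeing the data. Tspan1 ranged from -2.33 (without the Epcam-high, Vim-low bin) to -0.42, and Cd9 from -0.09 to 0.36. The count of members at least 1.5 times as often detected beside Cd9 was 9 in the whole tumour and 7 in CD9hi with no thinning, and 0 in CD9hi thinned to 2000 UMIs. The share of all genes was not counted at these settings. Without thinning the barcodes also differ in depth, which these counts cannot separate from detection beside Cd9, so they are not read as co-detection. The cause was not tested. No paired analysis was possible because each group has 1 library. Low counts limit Tspan1 in Vim-high barcodes.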
